A study of Mus musculus with 16 samples.

Results

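Platelet-derived growth factors (PDGF) and vascular endothelial growth factors (VEGF) were examined in lung fibroblasts that lack meflin. The genes were the PDGF ligands Pdgfa, Pdgfb, Pdgfc and Pdgfd, the PDGF receptors Pdgfra and Pdgfrb, and the VEGF ligands Vegfa, Vegfb, Vegfc and Vegfd. They were chosen by name, and each was read from array probes whose transcript accession maps to its symbol, which gave 16 probes for 10 of the 22911 genes named on the array. RNA was measured on 1-colour Agilent arrays, which report the brightness of each probe, in primary fibroblasts isolated by enzymatic digestion from the lungs of female mice aged 8 weeks. The mice carried a Meflin knockout (KO) or were wild type (WT) C57BL/6J. Cells of each genotype were cultured for 48 h with recombinant TGF-β1 at 5 ng/ml or with vehicle. The 4 groups (KO TGF-β1, KO vehicle, WT TGF-β1 and WT vehicle) had 4 arrays each. The design text gives these as independent experiments, and nothing ties them to separate mice, so p-values measure the spread between these arrays. The labels name neither the deleted part of the gene nor the background strain of the knockout.

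PDGF ligands act as dimers on receptor tyrosine kinases that drive the migration, division and survival of mesenchymal cells. PDGF-A and PDGF-C act mainly through PDGF receptor α, PDGF-D mainly through receptor β, and PDGF-B through both. VEGF-A is the main growth factor of blood vessel endothelium, VEGF-B binds the receptor Flt1, and VEGF-C and VEGF-D act on lymphatic endothelium through Flt4. PDGF-C, PDGF-D, VEGF-C and VEGF-D are secreted with extra domains that proteases remove. In the lung, Pdgfra marks resident fibroblasts and PDGF-A is needed for the myofibroblasts of growing alveoli, while VEGF-D is a ligand that lung fibroblasts themselves make. TGF-β1 makes fibroblasts contractile and matrix-forming, the state called myofibroblast.

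Each of the 16 arrays held 59305 spots that were not controls, with 0 saturated. Signals are given as log2 values after all arrays were set to a common 75th percentile, and a probe counts as well above background where the scanner software marked it so. Between 31308 and 32450 probes lay well above background on KO TGF-β1 arrays, 33300 and 34626 on KO vehicle arrays, 32057 and 33556 on WT TGF-β1 arrays, and 34251 and 35457 on WT vehicle arrays. Across the 15394 genes tested, r between arrays of the same group was 0.996 or more. The SD of 4 arrays had a median over genes of 0.0714 to 0.0856 log2 units. Islr, which encodes meflin, was well above background on none of the 8 KO arrays and on all 8 WT arrays. It was at least 19.7-fold lower in KO than in WT cells with TGF-β1 and at least 138-fold lower with vehicle (limma, adjusted p = 6.33e-18 and 1.60e-19). Its 1 probe may lie outside the deleted part. All 7 fibroblast markers (Col1a1, Col1a2, Col3a1, Dcn, Lum, Thy1 and Vim) were detected. Markers of other cell types, given below, were detected as well.

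All 10 PDGF and VEGF genes were well above background on all 16 arrays, so none of them entered the tests through 1 bright group alone. With TGF-β1, KO cells had higher RNA than with vehicle for Pdgfa, Pdgfc, Pdgfd, Pdgfrb and Vegfa and lower RNA for Pdgfb, Pdgfra, Vegfb, Vegfc and Vegfd, with Pdgfrb turning to -0.079 under quantile normalization. All 10 passed an adjusted p of 0.05, where 82.5% of all tested genes did (limma on log2 signals, Benjamini-Hochberg over 15394 genes), 5 of 10 higher against 46.6% of all genes and 5 of 10 lower against 35.9%. The arrays of the KO groups did not overlap for any of the 10, against 77.1% of all genes. In WT cells 9 of 10 passed, against 68.6% of all genes, with 4 of 10 higher (41.3% of all genes) and 5 of 10 lower (27.3%). The WT arrays did not overlap for 9 of 10 genes, against 62.9% of all genes. Pdgfd alone did not pass there. Leaving out any 1 WT array gave 7 or 8 genes, with Pdgfb or Vegfb no longer among them. Within slide 1 and slide 2, which each held 2 arrays of every group, 9 and 10 genes passed in KO cells and 6 and 7 in WT cells. Between KO and WT cells with TGF-β1, 8 of 10 differed (70.2% of all genes), 5 higher (39.6%) and 3 lower (30.5%) in KO cells, and the arrays of 8 of 10 did not overlap (64.7%). With vehicle 2 of 10 differed (13.2% of all genes), both higher in KO cells (7.07%) and 0 lower (6.16%). The response itself differed between KO and WT cells for 8 of 10 genes, by the interaction term, against 58.2% of all genes. The interaction was positive for 5 (31.7% of all genes) and negative for 3 (26.5%). Calls were frequent among all genes, so the counts of members are given beside these shares, and the values of each gene carry the description that follows. In the plot of single arrays the KO TGF-β1 group stands apart from the other groups for most of the genes. The RNA came from whole cultures, so fewer cells of a kind and less RNA per cell cannot be told apart.

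**Figure D1:**
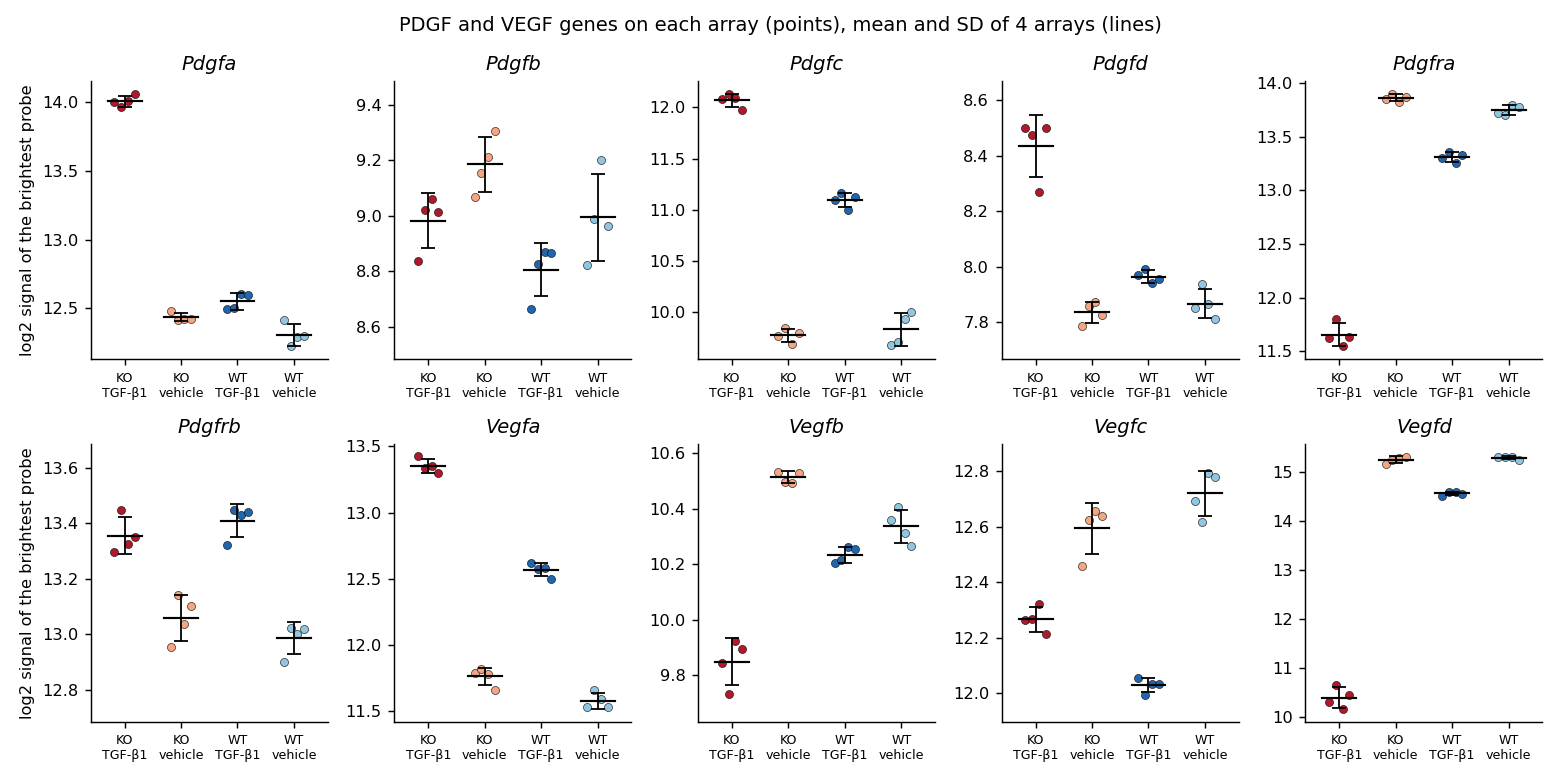
Log2 signal of the brightest probe of each PDGF and VEGF gene (vertical axis) on every array (points), by group (horizontal axis, KO TGF-β1, KO vehicle, WT TGF-β1, WT vehicle). Long lines are means and short lines the SD of 4 arrays; each panel has its own axis, which does not start at 0. KO TGF-β1 arrays lie apart from the other groups for Pdgfa, Pdgfc, Pdgfd, Pdgfra, Vegfa, Vegfb, Vegfc and Vegfd, and overlap others for Pdgfb and Pdgfrb.

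Among the PDGF ligands, Pdgfa and Pdgfc rose with TGF-β1 in both genotypes and more in KO cells. Pdgfa had log2 signals of 14.0002, 13.96, 14.01 and 14.06 on KO TGF-β1 arrays, 12.48, 12.41, 12.42 and 12.43 on KO vehicle arrays, 12.50, 12.51, 12.61 and 12.60 on WT TGF-β1 arrays, and 12.42, 12.22, 12.30 and 12.30 on WT vehicle arrays. The 4 KO TGF-β1 arrays lay far above the other 12, which spanned 12.22 to 12.61. Pdgfa rose by 1.57 ± 0.04 log2 units in KO cells (SE; 2.97-fold, adjusted p = 3.91e-14) and by 0.24 ± 0.04 in WT cells (1.18-fold, adjusted p = 1.35e-04). The WT rise was 0.088 with quantile normalization (adjusted p = 0.0631) and 0.088 in the authors' value table (adjusted p = 0.0720), where it did not pass. The responses differed by 1.33 ± 0.06 (adjusted p = 1.38e-10). A dimmer probe of Pdgfa gave 1.74 in KO and 0.26 in WT cells.

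Pdgfc, a ligand of receptor α that proteases activate outside the cell, had the largest rise in either genotype when each gene was read from its brightest probe, although dimmer probes of Vegfa rose by up to 2.46 in KO and 1.86 in WT cells. Its log2 signals were 12.08, 12.13, 12.09 and 11.98 on KO TGF-β1 arrays, 9.76, 9.84, 9.69 and 9.79 on KO vehicle arrays, 11.09, 11.16, 11.001 and 11.13 on WT TGF-β1 arrays, and 9.68, 9.70, 9.93 and 10.005 on WT vehicle arrays. The vehicle groups of KO and WT cells overlapped, and neither TGF-β1 group overlapped any other. Pdgfc rose 4.91-fold in KO cells (2.30 ± 0.07, adjusted p = 1.21e-13) and 2.40-fold in WT cells (1.26 ± 0.07, adjusted p = 4.47e-10). The difference between the responses was 1.03 ± 0.10 (adjusted p = 4.26e-07).

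Pdgfd and Pdgfb, which encode the ligands that act through receptor β, changed less. Pdgfd had log2 signals of 8.50, 8.48, 8.27 and 8.50 on KO TGF-β1 arrays, 7.79, 7.86, 7.87 and 7.83 on KO vehicle arrays, 7.97, 7.99, 7.94 and 7.96 on WT TGF-β1 arrays, and 7.85, 7.94, 7.87 and 7.81 on WT vehicle arrays. The KO TGF-β1 arrays lay above all others, 1 of them at 8.27 below the other 3. Pdgfd rose 1.52-fold in KO cells (0.60 ± 0.05, adjusted p = 1.46e-08). In WT cells its difference was 0.10 ± 0.05 (adjusted p = 0.0842), although the arrays of these groups did not overlap, and 0.14 with quantile normalization (adjusted p = 0.0145) or 0.12 without WT vehicle replicate 2 (adjusted p = 0.0468). The responses of Pdgfd differed by 0.50 ± 0.07 (adjusted p = 1.72e-05). Pdgfb fell slightly in both genotypes, with 8.84, 9.02, 9.06 and 9.02 on KO TGF-β1 arrays, 9.07, 9.16, 9.21 and 9.30 on KO vehicle arrays, 8.67, 8.83, 8.87 and 8.87 on WT TGF-β1 arrays, and 8.82, 8.99, 9.20 and 8.96 on WT vehicle arrays. The groups of KO cells just missed each other and those of WT cells overlapped. The change of Pdgfb was -0.20 ± 0.08 in KO cells (1.15-fold lower, adjusted p = 0.0267) and -0.19 ± 0.08 in WT cells (adjusted p = 0.0449). Neither held under all alternatives: the adjusted p reached 0.134 in KO and 0.209 in WT cells. The interaction of Pdgfb was -0.01 ± 0.11 (95% interval -0.25 to 0.22, adjusted p = 0.923).

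The PDGF receptors moved in opposite directions, except that Pdgfrb in KO cells was at -0.079 with quantile normalization. Pdgfra encodes receptor α, through which PDGF-A and PDGF-C act. It was measured at log2 signals of 11.62, 11.80, 11.55 and 11.63 on KO TGF-β1 arrays, 13.86, 13.90, 13.83 and 13.87 on KO vehicle arrays, 13.30, 13.36, 13.25 and 13.33 on WT TGF-β1 arrays, and 13.72, 13.70, 13.80 and 13.78 on WT vehicle arrays. The 4 groups formed 4 separate bands, with KO TGF-β1 cells lowest and KO vehicle cells highest. Its change with TGF-β1 was -2.21 ± 0.05 in KO cells (4.63-fold lower, adjusted p = 2.82e-15) and -0.44 ± 0.05 in WT cells (1.36-fold lower, adjusted p = 1.06e-06). The responses differed by -1.77 ± 0.07 (adjusted p = 1.93e-11). Pdgfra was thus lowest in the group in which Pdgfa and Pdgfc were highest.

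Pdgfrb encodes receptor β, which binds PDGF-B and PDGF-D and is typical of pericytes and activated fibroblasts. Its log2 signals were 13.30, 13.45, 13.32 and 13.35 on KO TGF-β1 arrays, 12.96, 13.14, 13.04 and 13.10 on KO vehicle arrays, 13.32, 13.45, 13.43 and 13.44 on WT TGF-β1 arrays, and 12.90, 13.02, 13.00 and 13.02 on WT vehicle arrays. TGF-β1 arrays lay above vehicle arrays in both genotypes, and KO and WT arrays overlapped under each treatment. Pdgfrb rose by 0.30 ± 0.05 in KO cells (1.23-fold, adjusted p = 4.86e-05) and by 0.42 ± 0.05 in WT cells (1.34-fold, adjusted p = 2.09e-06). With quantile normalization the KO difference was -0.079 (adjusted p = 0.135), and the WT difference was 0.25. The same normalization moved the median KO response of all genes to -0.01, against 0.10 with the 75th percentile. Its interaction was -0.13 ± 0.07 (95% interval -0.28 to 0.02, adjusted p = 0.129), but -0.33 with quantile normalization (adjusted p = 8.03e-04).

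Upstream sequence is shown for the receptor and the ligand of the PDGF genes whose group means spanned the widest range, Pdgfra and Pdgfc, which moved in opposite directions. Both are promoter windows from RefSeq on mouse build GRCm38.p6, from 250 bases before to 50 bases after the annotated start, printed in the direction of the gene. Capitals mark CAGAC or its reverse complement GTCTG, the core of the site that SMAD proteins of the TGF-β pathway bind. Pdgfra lies at chr5:75152001-75152300 on the plus strand, with 51% GC, and Pdgfc at chr3:81036166-81036465 on the plus strand, with 55% GC.
Pdgfra: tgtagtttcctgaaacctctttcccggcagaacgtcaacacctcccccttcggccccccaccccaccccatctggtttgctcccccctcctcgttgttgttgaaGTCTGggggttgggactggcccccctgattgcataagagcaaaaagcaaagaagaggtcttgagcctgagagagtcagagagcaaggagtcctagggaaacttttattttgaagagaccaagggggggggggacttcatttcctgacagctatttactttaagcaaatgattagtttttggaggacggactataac
Pdgfc: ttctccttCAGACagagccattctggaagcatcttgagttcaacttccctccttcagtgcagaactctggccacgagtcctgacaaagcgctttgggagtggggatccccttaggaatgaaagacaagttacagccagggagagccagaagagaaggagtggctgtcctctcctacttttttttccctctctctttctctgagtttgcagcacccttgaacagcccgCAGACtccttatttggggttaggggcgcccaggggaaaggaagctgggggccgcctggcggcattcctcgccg
Pdgfra holds the motif at -146 (as GTCTG) and Pdgfc at -242 and -23, counted in bases from the start. Of 32851 RefSeq promoters of this length 49.6% hold CAGAC on either strand, so its presence is common, and the gene that fell and the gene that rose both have it. Neither window holds ACGTG or GCGTG, the cores bound by hypoxia-inducible factors (HIF), on either strand. ACGTG was found in 19.6% and GCGTG in 32.4% of all promoters.

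Among the VEGF ligands, Vegfa rose with TGF-β1 in both genotypes. Its log2 signals were 13.42, 13.34, 13.35 and 13.30 on KO TGF-β1 arrays, 11.79, 11.82, 11.78 and 11.66 on KO vehicle arrays, 12.62, 12.58, 12.58 and 12.50 on WT TGF-β1 arrays, and 11.53, 11.66, 11.59 and 11.53 on WT vehicle arrays. No array of one group lay within another group. Vegfa rose 3.01-fold in KO cells (1.59 ± 0.04, adjusted p = 4.77e-14) and 1.99-fold in WT cells (0.99 ± 0.04, adjusted p = 4.89e-11). The responses differed by 0.60 ± 0.06 (adjusted p = 1.19e-06). With vehicle, Vegfa was 1.14-fold higher in KO than in WT cells (0.18 ± 0.04, adjusted p = 0.0124).

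The array carries 4 probes for Vegfa, a gene with many splice forms, and all 4 rose in both genotypes. The 3 dimmer probes gave 2.46, 1.84 and 2.32 in KO cells, against 1.86, 1.42 and 1.56 in WT cells. The brightest probe, which stands for the gene, thus had the smallest rise. The interaction passed on all 4, at 0.59, 0.41 and 0.76 on the dimmer probes (adjusted p = 6.69e-06, 4.42e-04 and 3.30e-05). The genotype difference with vehicle was 0.25 and 0.40 on 2 of them (adjusted p = 0.00572 and 3.85e-04) and -0.03 on the third (adjusted p = 0.891), so this difference depended on the probe. The splice form that each probe detects was not analysed here.

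**Figure D2:**
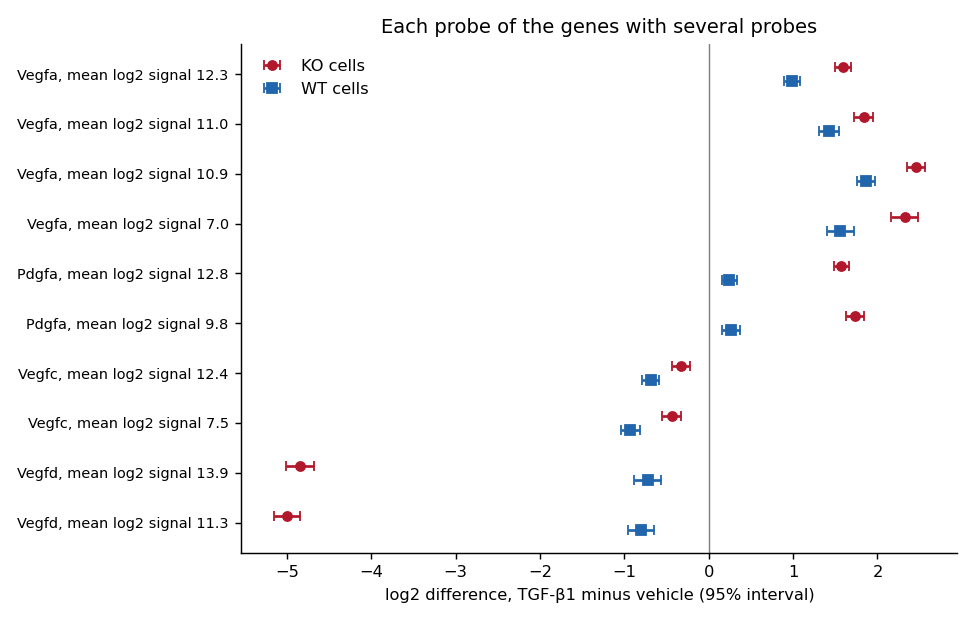
Log2 difference between TGF-β1 and vehicle (horizontal axis) for each probe of Vegfa, Pdgfa, Vegfc and Vegfd (vertical axis, labelled with the probe's mean log2 signal over 16 arrays), in KO cells (circles) and WT cells (squares). Lines are 95% intervals. Probes of a gene share the sign of both responses and the order of KO and WT cells, while the size of the Vegfa rise runs between 1.59 and 2.46 in KO cells and between 0.99 and 1.86 in WT cells.

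Vegfb, whose protein binds Flt1 and is linked to fatty acid uptake, fell in KO cells. It had log2 signals of 9.84, 9.73, 9.92 and 9.89 on KO TGF-β1 arrays, 10.53, 10.50, 10.49 and 10.53 on KO vehicle arrays, 10.20, 10.22, 10.26 and 10.25 on WT TGF-β1 arrays, and 10.36, 10.41, 10.31 and 10.27 on WT vehicle arrays. The 4 groups did not overlap, and the WT groups were closest. Vegfb fell 1.58-fold in KO cells (-0.66 ± 0.04, adjusted p = 8.87e-10). Its WT difference, -0.10 ± 0.04, passed narrowly (adjusted p = 0.0439) and was lost within slide 1 (-0.17, adjusted p = 0.0525) and within slide 2 (-0.03, adjusted p = 0.534). It was also lost without any 1 WT array other than WT vehicle replicate 4. The responses differed by -0.56 ± 0.06 (adjusted p = 1.47e-06).

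Vegfc, a lymphatic growth factor, was the only member that fell in both genotypes and less in KO cells. The arrays read 12.26, 12.27, 12.32 and 12.21 on KO TGF-β1 arrays, 12.46, 12.62, 12.66 and 12.64 on KO vehicle arrays, 12.05, 11.99, 12.03 and 12.04 on WT TGF-β1 arrays, and 12.69, 12.62, 12.79 and 12.78 on WT vehicle arrays. The vehicle groups overlapped, and WT TGF-β1 arrays were lowest. The change of Vegfc was -0.33 ± 0.05 in KO cells (adjusted p = 1.62e-05) and -0.69 ± 0.05 in WT cells (1.61-fold lower, adjusted p = 8.92e-09). The interaction was 0.36 ± 0.07 (adjusted p = 3.80e-04). With quantile normalization the KO fall was -0.63 and the interaction 0.21, which still passed, and the KO and WT TGF-β1 groups, 0.24 apart here (adjusted p = 5.01e-04), were 0.07 apart (adjusted p = 0.138). A dimmer probe gave -0.44 in KO and -0.93 in WT cells.

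Vegfd, formerly Figf, had the largest change of the 10 genes. Its log2 signals were 10.31, 10.66, 10.16 and 10.45 on KO TGF-β1 arrays, 15.16, 15.23, 15.28 and 15.31 on KO vehicle arrays, 14.50, 14.59, 14.58 and 14.55 on WT TGF-β1 arrays, and 15.29, 15.29, 15.30 and 15.23 on WT vehicle arrays. The KO TGF-β1 arrays lay far below all others, and the vehicle groups overlapped. Vegfd fell 28.8-fold in KO cells (-4.85 ± 0.08, adjusted p = 1.18e-16) and 1.65-fold in WT cells (-0.72 ± 0.08, adjusted p = 8.18e-07). The responses differed 17.4-fold (-4.12 ± 0.11, adjusted p = 6.38e-13). Within slide 1 the KO fall was -4.71 and within slide 2 it was -4.99. A second, dimmer probe gave -5.00 in KO and -0.80 in WT cells. Even so, Vegfd stayed well above background on all KO TGF-β1 arrays.

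The promoter windows of the VEGF genes with the widest range of group means, Vegfd and Vegfa, are shown with the same marking. Vegfd lies at chrX:164373272-164373571 on the plus strand (42% GC), and the first annotated start of Vegfa at chr17:46032328-46032627 on the minus strand (62% GC). The median GC of all promoter windows was 52.7%.
Vegfd: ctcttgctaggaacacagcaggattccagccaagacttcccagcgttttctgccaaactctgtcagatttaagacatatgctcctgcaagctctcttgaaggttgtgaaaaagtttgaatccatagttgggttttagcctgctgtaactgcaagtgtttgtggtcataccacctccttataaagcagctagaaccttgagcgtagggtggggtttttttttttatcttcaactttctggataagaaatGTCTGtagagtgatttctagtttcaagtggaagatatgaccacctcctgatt
Vegfa: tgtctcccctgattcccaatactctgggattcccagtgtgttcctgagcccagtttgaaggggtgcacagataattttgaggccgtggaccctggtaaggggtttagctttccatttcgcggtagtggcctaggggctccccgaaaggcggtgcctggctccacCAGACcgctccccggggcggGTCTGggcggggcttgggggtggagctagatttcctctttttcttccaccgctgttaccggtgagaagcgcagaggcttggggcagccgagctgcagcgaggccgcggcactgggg
In Vegfd the motif begins at -2, on the minus strand. The letters TATAAA, which 13.6% of all promoters hold on either strand, begin upstream of it at -73. In Vegfa the motif begins at -86 (plus strand) and at -66 (minus strand). A GC box (GGGCGG) begins at -72 and another at -62, and the second overlaps the end of the motif at -66. The GC box was found on either strand in 35.7% of all promoters. Neither of the windows printed holds ACGTG or GCGTG. The window of the second annotated start of Vegfa, not printed, holds GCGTG at -218 and ACGTG at -211, and GCGTG is also in windows of Pdgfa (1 match) and Vegfb (2 matches). Windows were at hand for 8 of the 10 genes, and CAGAC was in those of 5 of them (Pdgfc, Pdgfd, Pdgfra, Vegfa and Vegfd) and not in those of Pdgfa, Vegfb and Vegfc. These matches are descriptions of letters within the windows.

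Set side by side over the 4 groups, the genes differed in which groups could be told apart. For Vegfa the order from high to low was KO TGF-β1, WT TGF-β1, KO vehicle and WT vehicle, and for Pdgfra and Vegfb it was KO vehicle, WT vehicle, WT TGF-β1 and KO TGF-β1, with no overlap of arrays between neighbours. For Pdgfa the order was that of Vegfa, but KO vehicle and WT vehicle arrays overlapped. Pdgfc and Pdgfd were highest in KO TGF-β1 and then WT TGF-β1 cells, and their vehicle groups overlapped. Vegfd and Vegfc overlapped between the vehicle groups as well. KO TGF-β1 cells were lowest for Vegfd and WT TGF-β1 cells were lowest for Vegfc. For Pdgfrb the TGF-β1 groups overlapped each other and the vehicle groups overlapped each other, and for Pdgfb every pair of neighbours overlapped. The widest range of group means was that of Vegfd, at 4.88 log2 units, and the narrowest that of Pdgfb, at 0.38.

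Without TGF-β1 the genotypes were close. Vegfa and Vegfb passed, at 0.18 ± 0.04 and 0.18 ± 0.04, which are 1.14-fold and 1.13-fold higher levels in KO than in WT cells (adjusted p = 0.0124 and 0.0121). Pdgfra arrays also did not overlap between the genotypes, but its difference of 0.11 did not pass (adjusted p = 0.137). Arrays did not overlap for 3 of 10 members, against 18.8% of all genes. For Vegfd the difference was -0.04 (adjusted p = 0.812) and for Pdgfc -0.06 (adjusted p = 0.651). With quantile normalization Vegfa stood at 0.17 and did not pass (adjusted p = 0.0511). Vegfc was at -0.13 and did not pass (adjusted p = 0.109), but it was lower in KO cells and passed with quantile normalization (-0.14, adjusted p = 0.0288), with normexp background correction (-0.15, adjusted p = 0.0492) and as the mean over its probes (-0.24, adjusted p = 0.00109). Its dimmer probe gave -0.35 (adjusted p = 8.37e-04), with no overlap of arrays. The count of 2 was not stable: it was 4 when all kept probes of a gene were averaged, 0 within slide 1, 1 within slide 2 and 1 when only the vehicle groups entered the fit.

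With TGF-β1 the genotypes were farther apart. Vegfd was 17.9-fold lower in KO than in WT cells (-4.16 ± 0.08, adjusted p = 4.21e-15) and Pdgfra 3.16-fold lower (-1.66, adjusted p = 3.13e-13). Vegfb was 1.31-fold lower. Pdgfa was 2.74-fold higher (1.46, adjusted p = 3.92e-13), Pdgfc 1.96-fold, Vegfa 1.72-fold, Pdgfd 1.39-fold and Vegfc 1.18-fold higher. Pdgfb and Pdgfrb did not pass, at 0.18 (adjusted p = 0.0570) and -0.05 (adjusted p = 0.332). The call of Pdgfb changed in 6 of 20 alternatives, among them the slide block (adjusted p = 0.0174), the replicate block (adjusted p = 0.00420), normexp (adjusted p = 0.0175) and the fit on the compared groups alone (adjusted p = 0.0403), and its difference lay between 0.13 and 0.23 in all 20. For Pdgfrb the difference was -0.26 with quantile normalization (adjusted p = 1.80e-04). The median over the 10 genes was 0.21, against 0.06 over all genes.

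The estimated response had the same direction in both genotypes for all 10 genes (Pdgfrb excepted under quantile normalization), but its size differed for 8. In WT cells the estimate of Pdgfd did not pass (limma, adjusted p = 0.0842). The WT calls of Vegfb and Pdgfb were lost in 15 and 11 of 20 alternatives. Of the 8 genes with a different response, Pdgfa, Pdgfc, Pdgfd and Vegfa rose more in KO cells, Pdgfra, Vegfb and Vegfd fell more in KO cells, and Vegfc fell less. These contrasts share their arrays, so the values of each are given side by side and not as separate evidence. The median response of the 10 genes was 0.05 in KO and -0.00 in WT cells, against 0.10 and 0.08 over all genes.

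**Figure D3:**
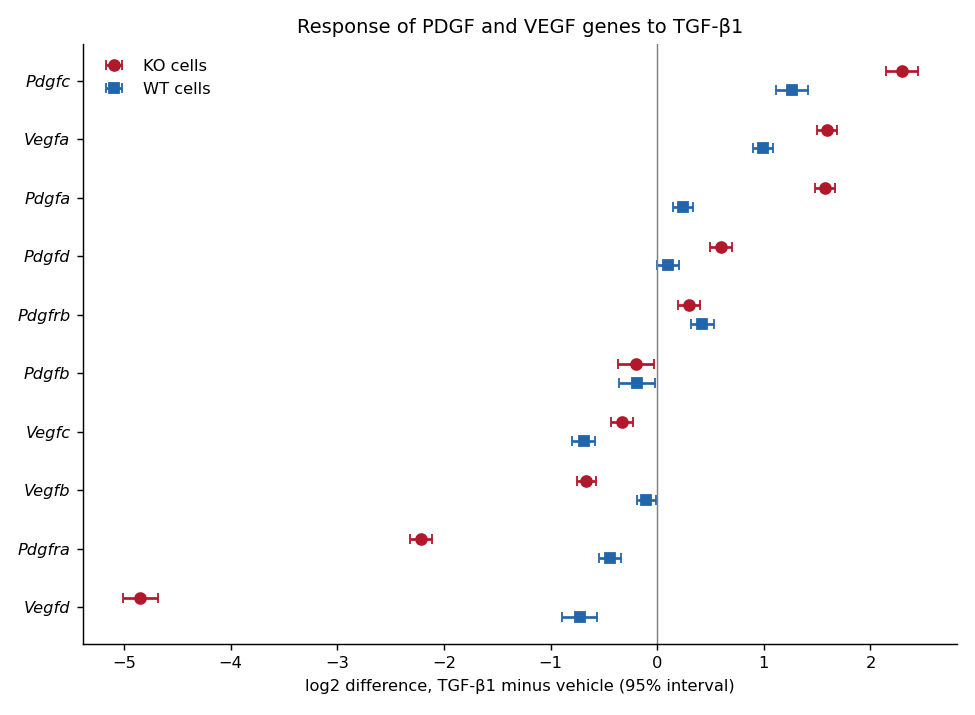
Log2 difference between TGF-β1 and vehicle (horizontal axis) of each PDGF and VEGF gene (vertical axis), in KO cells (circles) and WT cells (squares), with 95% intervals from limma. The KO response lies farther from 0 than the WT response for Pdgfc, Vegfa, Pdgfa, Pdgfd, Vegfb, Pdgfra and Vegfd, and nearer to 0 for Vegfc. It is also nearer to 0 for Pdgfrb, whose interaction did not pass, and both responses of Pdgfb nearly coincide.

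Some members varied together over the 16 arrays, as a description that rests mostly on the 4 group means. Pearson's r was 0.994 between Pdgfra and Vegfd and 0.986 between Pdgfc and Vegfa. Members and genes with provisional or accession-like symbols were passed over in what follows. Among the other tested genes the closest patterns to Pdgfra were those of Gas1 (r = 0.998), a membrane protein of growth arrest, Rcan2 and the matrix protein Prelp. Those closest to Vegfd were Slc10a6 (r = 0.999), a steroid sulfate transporter, Ildr2 and Serpina3n. Closest to Pdgfc were Ak4 (r = 0.997), a mitochondrial adenylate kinase, Emx2 and the glycolytic enzyme Pgam1, and closest to Vegfa were Fzd2 (r = 0.997), a Wnt receptor, Zdhhc2 and the actin-binding protein Tpm1. Slc10a6 was not well above background on any KO TGF-β1 array and was at least 55.7-fold lower there than with vehicle.

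Of 6 genes for VEGF receptors, co-receptors and the further ligand Pgf, 2 rose, 2 fell and 2 did not pass in KO cells, and 2 rose, 3 fell and 1 did not pass in WT cells. The shares that passed, 4 and 5 of 6, stand beside 82.5% and 68.6% of all genes, and the list medians were -0.04 and -0.41. Flt1, the receptor of VEGF-A and VEGF-B, rose by 1.04 in KO and 0.96 in WT cells. Kdr, the main signalling receptor of VEGF-A, changed by -1.07 in KO and -1.02 in WT cells, and Nrp1, a co-receptor, by -1.21 and -0.51. Of these 3 genes the interaction passed for Nrp1 (-0.69, adjusted p = 1.38e-07) and was 0.08 for Flt1 (adjusted p = 0.534) and -0.05 for Kdr (adjusted p = 0.727). Pgf, a ligand of Flt1, rose by 0.52 in KO cells and fell in WT cells (-0.50), with an interaction of 1.03 (adjusted p = 5.36e-08). Flt4, the receptor of VEGF-C and VEGF-D, was well above background on 1 of 4 KO TGF-β1, 2 of 4 KO vehicle, 3 of 4 WT TGF-β1 and 4 of 4 WT vehicle arrays, and its TGF-β1 differences did not pass, although that of KO cells did with normexp (0.22). Flt4 was lower in KO than in WT cells with TGF-β1 (-0.42, adjusted p = 0.0408, arrays overlapping) and with vehicle (-0.63, adjusted p = 0.0248, no overlap), but with normexp these differences were 0.04 and -0.12 and did not pass. Nrp2 was 0.02 in KO cells, which did not pass, and 0.15 in WT cells, which did. With quantile normalization both passed as falls (-0.51 and -0.11) and the interaction passed too (-0.39, against -0.14, which did not), so no direction is given for it.

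Genes whose proteins cut or bind the ligands changed in both directions. Of 7 genes for ligand processing, 4 rose and 2 fell in KO cells, and 1 rose and 4 fell in WT cells, so that 6 and 5 of 7 passed where 82.5% and 68.6% of all genes did. Their medians were 0.14 in KO and -0.70 in WT cells, against 0.10 and 0.08 over all genes. Furin, a convertase that cuts PDGF and VEGF precursors, rose by 0.80 in KO cells and was 0.13 in WT cells (adjusted p = 0.102), with an interaction of 0.67 (adjusted p = 2.63e-05). The related convertase gene Pcsk5 rose by 0.27 in KO cells and was -0.76 in WT cells, an interaction of 1.03 (adjusted p = 6.41e-09). Plat, the tissue plasminogen activator that can activate PDGF-C, fell in KO (-1.43) and WT cells (-0.80). Ccbe1, a cofactor of VEGF-C cleavage, rose by 0.63 and 0.79. Adamts3, the protease it assists, was not well above background on any KO TGF-β1 array and at least 1.69-fold lower there than with vehicle. With normexp this KO difference was -0.16, smaller than that bound. Adamts3 fell in WT cells as well (-1.06, and -0.19 with normexp), where 2 of 4 TGF-β1 arrays were well above background. Of 6 extracellular binders 4 rose and 2 fell in each genotype, with medians of 0.24 in KO and 0.20 in WT cells. Among all genes 46.6% rose and 35.9% fell in KO cells, and 41.3% rose and 27.3% fell in WT cells. Thbs1 rose by 2.17 in KO and 1.31 in WT cells, and Ccn2, which can hold VEGF-A in the matrix, by 2.41 and 0.88. The proteoglycan gene Dcn fell (-1.52 and -0.71), as did the receptor-like gene Pdgfrl (-0.44 and -0.45). The rises of Sparc and Hspg2 were lost with quantile normalization.

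Of 13 genes for docking and signalling proteins downstream of the receptors, 3 rose and 9 fell in KO cells (46.6% and 35.9% of all genes), and 4 rose and 5 fell in WT cells (41.3% and 27.3%). Their medians were -0.25 in KO and -0.11 in WT cells, against 0.10 and 0.08 over all genes. The kinase gene Src rose by 0.93 in KO and 0.38 in WT cells, and the docking protein gene Gab1 fell (-1.15 and -0.51). Ptpn11, at 0.44 in KO cells, was -0.05 with quantile normalization. Of 13 genes for receptor turnover and feedback 3 rose and 8 fell in KO cells, and 1 rose and 8 fell in WT cells, with medians of -0.20 and -0.24. The 3 that rose in KO cells were the feedback inhibitors Spry1 (1.04, against -0.34 in WT cells), Dusp4 (1.18, against 0.02, which did not pass) and Dusp5 (1.42, against -0.63), with interactions of 1.38, 1.16 and 2.05. Dusp5 was well above background on 3 of 4 WT TGF-β1 arrays, and its WT change did not pass with quantile normalization (-0.46) or normexp (-0.02). With normexp its KO rise was 0.67 and its interaction 0.70, both of which still passed. Ptprj, a phosphatase that acts on PDGF receptor β, fell in both genotypes (-1.18 and -0.57), as did Dusp6 (-0.63 and -0.48).

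Immediate early genes, which growth factor signals switch on within minutes, were measured here at 48 h. Of 10 such genes 4 rose and 6 fell in KO cells, against 46.6% and 35.9% of all genes. In WT cells 5 rose and 5 fell, against 41.3% and 27.3%. The medians were -0.32 in KO and -0.00 in WT cells. Fos fell in KO cells (-2.62) and was 0.22 in WT cells (0.10 with quantile normalization, which did not pass), with an interaction of -2.84 (adjusted p = 2.90e-11). Egr1 fell likewise in KO cells (-1.53) and rose by 0.25 in WT cells. Fosl1 rose by 0.72 in KO cells and was -0.74 in WT cells, and Myc rose by 1.62 and 0.71. Of 16 genes of the HIF pathway and its targets, to which Vegfa belongs in background knowledge, 11 rose and 4 fell in KO cells (46.6% and 35.9% of all genes), and 11 rose and 3 fell in WT cells (41.3% and 27.3%). Hif1a rose by 1.43 in KO and 1.14 in WT cells, Bnip3 by 2.81 and 2.00, Pdk1 by 1.82 and 1.44 and Pgk1 by 1.80 and 1.39. Epas1 fell (-1.61 and -1.09), and so did Car9, a classical HIF target (-0.81 and -1.44), while Adm, another one, fell in KO cells (-0.64) and was 0.05 in WT cells (adjusted p = 0.538), but fell there with quantile normalization (-0.20). The interaction passed for all 16 genes, positive for 13 (31.7% of all genes) and negative for 3 (26.5%). It did not pass for Hif1a, Vhl, Ldha, Pdk1, Ndrg1 and P4ha1 with quantile normalization, nor for Ldha with normexp. The list medians were 0.98 in KO and 0.58 in WT cells, against 0.10 and 0.08 over all genes.

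**Figure D4:**
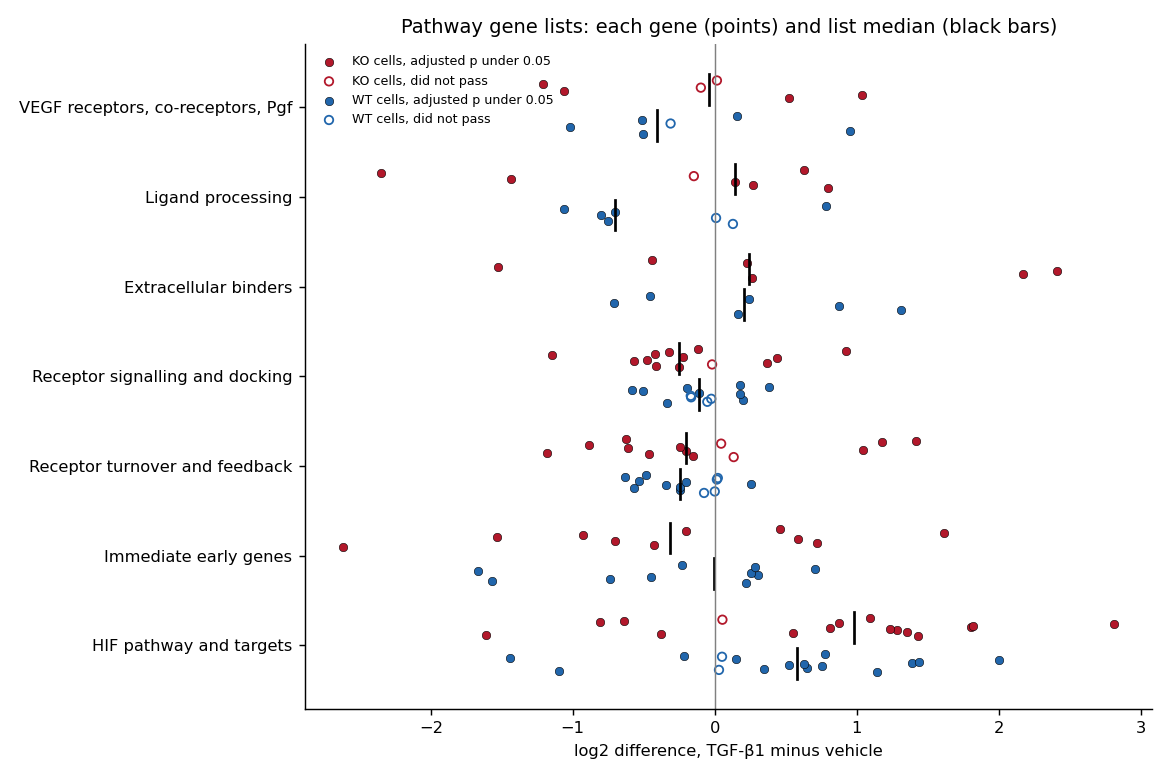
Log2 difference between TGF-β1 and vehicle (horizontal axis) of the genes of 7 lists around the PDGF and VEGF genes (vertical axis), in KO cells (upper points of each list) and WT cells (lower points). Filled points passed an adjusted p of 0.05, and black bars are list medians. The HIF list has the highest medians (0.98 in KO and 0.58 in WT cells); the leftmost point of ligand processing is Adamts3, which was at background on KO TGF-β1 arrays.

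Markers of other cell types also changed with TGF-β1, some upward and some downward. Among all genes 46.6% rose and 35.9% fell in KO cells, and 41.3% rose and 27.3% fell in WT cells. Of 9 endothelial markers all 9 fell in both genotypes, with medians of -1.17 in KO and -0.85 in WT cells. They were well above background on all arrays, except Tek on 1 KO TGF-β1 array. Their summed signal was 4173 to 4648 on KO TGF-β1 arrays, 9642 to 9969 on KO vehicle arrays, 5924 to 6433 on WT TGF-β1 arrays and 10420 to 10803 on WT vehicle arrays. Of 10 macrophage and leukocyte markers 9 fell and 1 rose in KO cells, and 9 fell in WT cells. Their sum was 58694 to 64185 on KO TGF-β1 arrays, 126384 to 129415 on KO vehicle arrays, 82290 to 87964 on WT TGF-β1 arrays and 150437 to 174085 on WT vehicle arrays. All 4 mesothelial markers fell in KO cells, with a summed signal of 9912 to 11351 on KO TGF-β1 arrays, 19400 to 20342 on KO vehicle arrays, 19391 to 20390 on WT TGF-β1 arrays and 22105 to 23311 on WT vehicle arrays. In WT cells 2 mesothelial markers rose with TGF-β1 (Wt1 by 0.41 and Lrrn4 by 0.15) and 2 fell. The mesothelial sum was lower there with TGF-β1 than with vehicle. The endothelial, the macrophage and leukocyte and the mesothelial sums were all lowest in KO TGF-β1 cells, as were Vegfd, Pdgfra and Vegfb. By group mean the fibroblast markers Dcn, Lum and Col3a1 were lowest there too. Col1a1, Col1a2 and Vim were highest there, and Thy1 was neither. Of 7 fibroblast markers 4 rose and 3 fell in KO cells, and 5 rose and 2 fell in WT cells. The falls were those of Lum (-2.09 in KO and -0.76 in WT cells), Dcn (-1.52 and -0.71) and, in KO cells alone, Col3a1 (-0.53). Of 10 pericyte and smooth muscle markers 5 rose and 4 fell in KO cells, and 4 rose and 4 fell in WT cells. Of 8 epithelial markers Epcam, Sftpa1 and Nkx2-1 were not tested, since no group had them well above background throughout. Krt8, Krt18 and Cdh1 rose in KO (0.77, 0.94 and 0.85) and WT cells (0.72, 0.78 and 0.98), while Krt19 was 0.12 in KO cells (adjusted p = 0.145) and fell in WT cells (-1.39). Sftpc, a surfactant protein gene, fell in both genotypes (adjusted p = 3.74e-12 and 3.04e-10) and was well above background on 0 of 4 KO TGF-β1, 4 of 4 KO vehicle, 1 of 4 WT TGF-β1 and 4 of 4 WT vehicle arrays. The summed signal of the 5 tested epithelial markers was 10512 to 11673 on KO TGF-β1 arrays, 6568 to 6796 on KO vehicle arrays, 10199 to 10987 on WT TGF-β1 arrays and 7381 to 8040 on WT vehicle arrays. All 5 myofibroblast markers rose in both genotypes, with medians of 2.63 and 2.19. The part of these cell types in the PDGF and VEGF values was not tested.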

How the data were processed

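The files the authors deposited hold linear intensity values for each spot. Per the file headers they were extracted with Agilent Feature Extraction 11.0.1.1, which subtracted background and removed spatial trends; this program also stands in the submitters' processing notes. They also deposited log2 values of 9933 probes. This table correlated with the log2 intensity at r of at least 0.999 on each array, its values are not centred per probe, its column medians were 6.38 to 6.61, and its normalization is unstated. It holds 5 of the 10 genes and served as an alternative.

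Intensities were log2 transformed, averaged over spots of a probe, and shifted so that the 75th percentile over probes matched on all arrays. Of 56605 probes 27 with outlier marks were left out. Kept were 33888 probes that were well above background throughout 1 or more groups. Accessions without version were matched to RefSeq genes of GRCm38.p6, which named 32994 of all probes and 22709 of those kept. The brightest probe stood for each of 15394 genes. The array was designed on another build, so no probe coordinates are given. Levels of different probes were set against each other in choosing the brightest probe and in the bounds. The summed marker signals add linear signals of different probes, so bright probes weigh most in them. Otherwise no level of one probe was set against another's.

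The tests used limma 3.58.1 (R 4.3.3; the data.table package, version 1.17.8, read the files) with 1 coefficient per group over 16 arrays, 2-sided moderated tests and Benjamini-Hochberg adjustment over all genes within each of 5 comparisons. Values after ± are standard errors. Bounds ("at least") set the brighter group's mean against, on each dim array, the higher of that probe's signal and the array's dimmest signal well above background. The fit was tested on simulated data. The members and gene lists were chosen with earlier results of these data known. Genes of a list were named by smallest adjusted p, with others as values. For the 2 PDGF and 2 VEGF genes with the widest range of group means, the 3 genes with the highest r were named. Members, accession-like symbols and symbols that start with Gm or LOC or end in Rik were passed over there. Normexp, with offset 50, used median spot signals, as no mean spot signal was at hand. Each of 2 slides held 2 arrays of every group. Replicate numbers recur across groups; the labels tie them to no shared mouse or day, so they were not taken as pairs. Alternatives were another normalization, background correction, filter, probe rule, source of values, slide or replicate block, single slides, the compared groups alone, stricter thresholds, and leaving out each array. Precision is limited by 4 arrays a group.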

Additional observations from a re-analysis of the deposited data

Results flagged for a closer look

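In 3 of 40 groups of 4 arrays (10 genes in 4 groups) 1 array lay apart from the others by Dixon's criterion, which chance meets in about 1 in 20 groups. They were Pdgfd in KO TGF-β1 replicate 3, at a log2 signal of 8.27 with the others between 8.48 and 8.50, Pdgfrb in WT TGF-β1 replicate 1, at 13.32 with the others between 13.43 and 13.45, and Vegfc in KO vehicle replicate 1, at 12.46 with the others between 12.62 and 12.66.

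For 8 genes the response to TGF-β1 differed between KO and WT cells by the interaction term of limma. The KO response minus the WT response was 1.33 for Pdgfa, 1.03 for Pdgfc, 0.50 for Pdgfd, -1.77 for Pdgfra, 0.60 for Vegfa, -0.56 for Vegfb, 0.36 for Vegfc and -4.12 for Vegfd.

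Of 71 genes on the 7 lists 11 passed in opposite directions in the 2 genotypes. The share of all genes that did so was not counted, and 82.5% of all genes passed in KO and 68.6% in WT cells. The 11 are therefore given for their values and not as a trait of the lists. The KO response minus the WT response was 1.03 for Pgf, 1.03 for Pcsk5, 1.38 for Spry1, 2.05 for Dusp5, 1.46 for Fosl1 and 0.69 for Ier3, which rose in KO and fell in WT cells. It was -0.30 for Stat3, -0.86 for Spry2, -2.84 for Fos, -1.79 for Egr1 and -0.49 for Ier2, which fell in KO and rose in WT cells. With quantile normalization the WT responses of Stat3, Spry2, Fos and Dusp5 did not pass, and that of Stat3 was -0.01. With normexp that of Dusp5 was -0.02 and did not pass, and its KO response minus WT response was 0.70.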

How the results depend on the processing

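For 50 differences of the 10 genes, 1095 values under another setting were set against the main ones. The stricter thresholds reused the main fit. Of these values 1015 stayed on the same side of the threshold, 58 no longer passed, 21 newly passed and 1 that had passed turned. The turned value was Pdgfrb in KO cells with quantile normalization (-0.079). Values that passed in neither setting counted as the same whatever their direction, and some changed sign. An example is Pdgfc between genotypes with vehicle, at -0.06 here and between -0.23 and 0.12 under the alternatives. Of the 58, 21 came from stricter thresholds, and 33 concerned Pdgfb or the WT response of Vegfb; the cause was not tested. The authors' table holds 5 of the genes, and 5 passed there for TGF-β1 in KO cells, 4 in WT cells, 0 between genotypes with vehicle, 5 between genotypes with TGF-β1 and 5 as interaction. With a fold of at least 1.5 required as well, 4 passed in WT cells, 0 between genotypes with vehicle, 5 between genotypes with TGF-β1 and 5 as interaction. The shares of all genes that passed in the authors' table or with this fold were not counted. These counts of members therefore have no share to stand beside. Between genotypes with vehicle, the count of 2 became 4 with the mean over probes, 0 within slide 1, 1 within slide 2, 1 with only the groups compared and 0 at an adjusted p under 0.01. Leaving out 1 array gave 9 to 10 genes in KO cells, 7 to 8 in WT cells, 2 to 3 between genotypes with vehicle, 8 to 9 between genotypes with TGF-β1 and 8 to 9 as interaction. With the replicate block, 10, 8, 3, 9 and 9 members were called in these 5 comparisons. The block called 12842, 10791, 2301, 11061 and 9308 of all genes, against 12705, 10560, 2037, 10800 and 8967 without it, so it raised the count in all 5. The deviations of same-numbered arrays from their group means correlated at r of -0.03 to 0.14 over 16 pairs of arrays, with 14 above 0 and 3 above 0.1. In 9 of 16 an array correlated best with its own number, against 4 by chance if slides had no effect. Same-numbered arrays also shared a slide, so this count does not separate a shared number from a shared slide. With slide as the block, 12846, 10817, 2392, 11047 and 9348 of all genes were called. A link between same-numbered arrays is thus at most a hint from the data and not from the design. The share of rises among genes called was 54.5% for the interaction and 43.6% with quantile normalization; between genotypes with TGF-β1 it was 56.5% and 46.8%. List counts, 784 values for 35 counts, were within 1.5 times in 703 cases. Of 239 called values of list genes 227 kept their sign and 203 also their call under both quantile normalization and normexp. The interaction was not refitted on compared groups alone, since it uses all 4. All 10 genes were well above background on all arrays, but some calls in limma moved with normexp. That setting also used median spot signals and an offset of 50, so the part of background handling alone was not tested. With normexp the KO response of Pdgfb (adjusted p = 0.0636) and the WT response of Vegfb (adjusted p = 0.0798) no longer passed. Newly passing were the genotype differences of Pdgfb with TGF-β1 (adjusted p = 0.0175) and of Vegfc with vehicle (adjusted p = 0.0492). Among the dim list genes, Flt4 and Adamts3 were not well above background on all arrays.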
